A study of Gallus gallus with 4 samples.

Results

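The members described here are the probe sets of chicken genes that drive the cell cycle and copy the DNA. They were selected by gene symbol, and no measured value entered the rule, which was written with earlier results of these data known. The symbols cover those cyclins among A to H that have a number in the symbol, which leaves out CCNC, CCNF and CCNH. Cyclin-dependent kinases (CDKs) and their inhibitors are also covered. They also cover CDC genes other than CDC42, MCM and ORC proteins, and DNA polymerases alpha, delta and epsilon. Replication factor C (RFC), PCNA, CENP proteins, Aurora and polo-like kinases and BUB proteins complete the set. This gave 212 of 37695 chicken probe sets on an Affymetrix array, for 113 genes. Some symbols match by their letters only. A group of 26 probe sets for 11 genes, such as CDC5L and CDC73, belongs mainly to splicing, transcription and other processes and was kept apart.

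RNA came from the region around the primitive streak in chicken embryos at 9 somites, the source of presomitic mesoderm (PSM), the tissue that later segments into somites. Embryos incubated for 24 h at 38 °C to stage 5 HH were electroporated in culture and grown for 14 h more. In the HoxA13 group the vector carried HoxA13 under the CAGGS promoter, which is active in most cell types, together with an H2B-Venus reporter, a fluorescent histone that marks nuclei. In the control group it coded for the H2B-Venus reporter alone. Both groups thus share the electroporation, the culture and the reporter, and all embryos keep their own Hox genes. Each array held total RNA of 7 pooled embryos, and each group had 2 arrays, which the labels call biological replicates. The question of the comparison is how transcript levels in these progenitors change with HoxA13 overexpression. The share of cells that took up a vector was not given in the sources used here.

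A dividing cell passes from G1, when it commits to another round, through S phase, when DNA is copied, and G2 to mitosis. Cyclins switch on CDKs, inhibitors hold them back, ORC and MCM proteins mark and open the origins, and the polymerases with their clamp PCNA copy the strands. In mitosis CENP proteins build the kinetochore, BUB proteins delay separation until every chromosome is attached, and the anaphase-promoting complex then triggers it. The caudal progenitors of vertebrate embryos keep dividing while the axis grows.

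Values are linear signal intensities, given for replicates 1 and 2 in that order. Background, taken on each array as the level that 99% of its viral probe sets stayed under, was 14.3 and 14.5 on the HoxA13 arrays and 12.8 and 16.5 on the controls, and between 37.8% and 42.7% of chicken probe sets exceeded it. The single HOXA13 probe set gave 16.3 and 8.09 against 11.6 and 24.7, near background throughout. The sources do not say whether it detects the transcript of the vector, and it was not used to check the labels. The tissue label was checked against 10 measured streak and tail bud genes. All 10 passed the filter on low signal, with the T-box factor gene TBXT at 6483 and 5820 against 5873 and 5508. Of 9 blood and endothelial markers 5, among them the globin gene HBA1, were below background on every array. So were 18748 of 37695 chicken probe sets, so this count says little about the tissue. The endothelial gene FLT1, the only 1 of the 9 to pass the filter, gave 33.6 and 0.99 against 212 and 153.

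The arrays did not behave alike over the members. After the filter, 140 members for 100 genes remained of 14554 chicken probe sets. Their lowest signal was on control replicate 2 for 74 of the 140 (52.9%), against 35.9% of all probe sets that passed the filter. On the log2 scale the members' median difference of control replicate 2 from control replicate 1 was -0.22, and that of all probe sets was -0.08. The HoxA13 arrays differed by a median of 0.03. Control replicate 2 also had the highest background of the 4 arrays. The share with the lowest signal there was 48.6% after quantile normalization, against 31.1% of all. It was 47.1% with the arrays centred on their medians, against 28.0% of all. With 1 probe set per gene it was 56 of 100, against 37.5% of all. On the values as deposited it differed by role. It was 0 of 3 for other polo-like kinases, 4 of 12 for G1 cyclins and kinases and 7 of 20 for the set matched by letters. For anaphase and mitotic exit it was 6 of 7. The labels give no property of this array that sets it apart. Some of the results that rest on it, but not all, are given below also without it. The array was singled out by its low signals, so leaving it out lowers HoxA13 minus control for members lowest there. Where a group median is given without it, the median without control replicate 1 is given too.

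**Figure D1:**
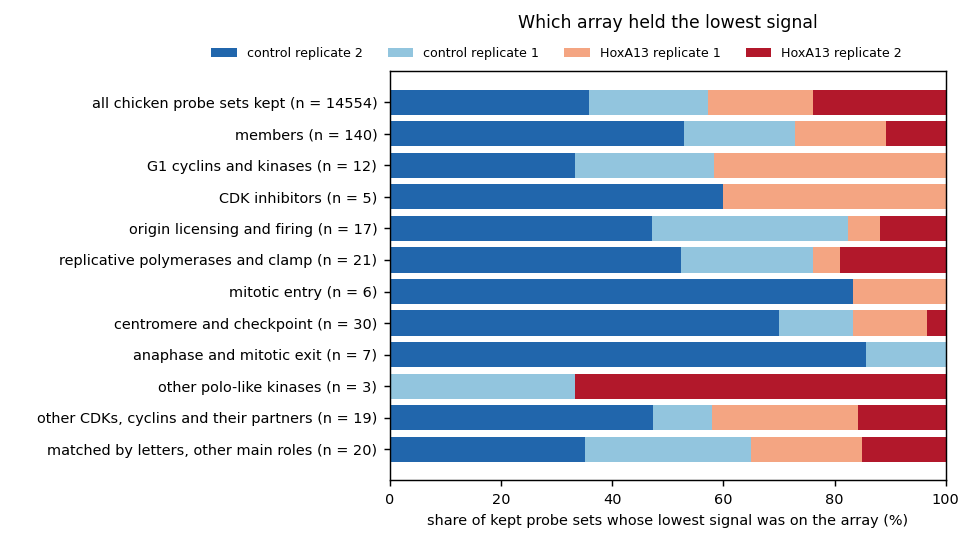
For each group of probe sets that passed the filter, the bar divides 100% by the array that held the lowest of the 4 signals, and n is the number of probe sets. Control replicate 2, in dark blue, held the lowest signal for 52.9% of the members and 35.9% of all chicken probe sets, and for 21 of 30 centromere and checkpoint probe sets.

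No member of the machinery differed between the groups at an adjusted p under 0.05 in limma, 0 higher and 0 lower. Over all chicken probe sets, 2 were higher and 9 lower, which is 0.0137% and 0.0618% of those tested. At an unadjusted p under 0.05 there were 2 of 140 members (1.43%), CCNG2 and POLD3, both lower, against 739 of 14554 probe sets (5.08%). The smallest adjusted p of a member was 0.822. In bulk tissue, fewer cells of a type and less RNA per cell cannot be told apart, and a mean over cells in all phases does not give the share in each phase. The members' differences of HoxA13 from control on the log2(intensity + 16) scale ran from -0.80 to 0.75, with a median of 0.09 against 0.03 for all probe sets. They were above 0 for 93 and below 0 for 47, that is 66.4% above 0 against 54.8% of all. With control replicate 2 left out, 76 members were above 0 and 64 below, against 7036 and 7518 of all probe sets. With control replicate 1 left out, 97 were above 0 and 43 below, against 8465 and 6089 of all.

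The size of change that these arrays leave room for is shown by the 95% intervals. On the log2(intensity + 16) scale it stayed within 1 of 0 for 109 of the 140 members (77.9%, against 69.1% of all probe sets). For the other 31 it reached farther. A difference of 1 is close to 2-fold for bright probe sets. For dim ones it is more than 2-fold in signal, since 16 is added to each intensity. For example, a POLD3 probe set with mean signals of 20.8 against 48.1 differed by -0.80 on this scale. Both HoxA13 signals were above both control signals for 25 members (17.9%), where the share over all probe sets was 18.5%. They were below for 9 (6.43%), where it was 14.4%. The groups overlapped for the remaining 106. The median rested on the control arrays: it was 0.19 without control replicate 1 and 0.02 without control replicate 2, when that of all probe sets was 0.08 and -0.01. With either array left out 0 members passed.

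**Figure D2:**
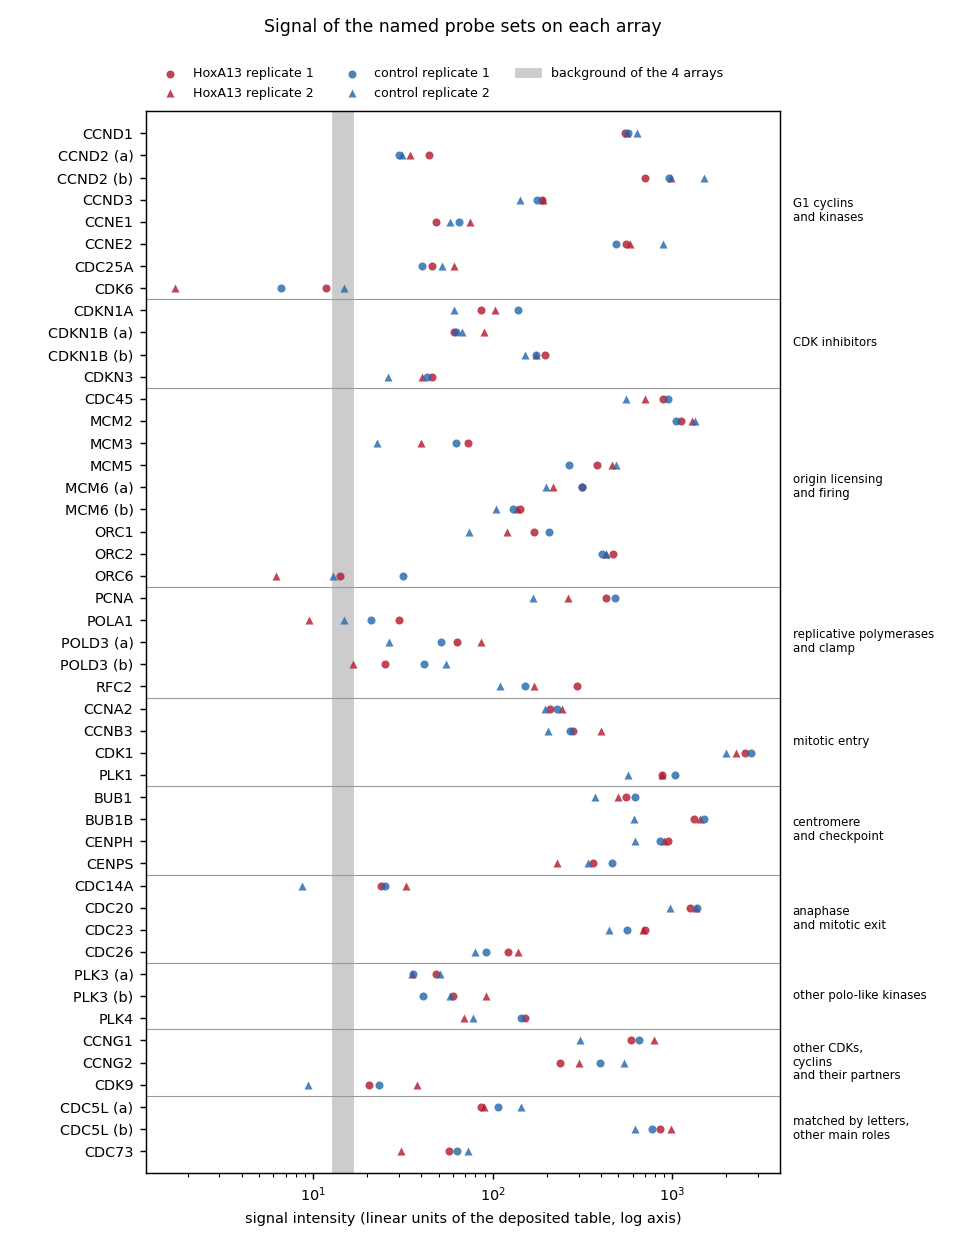
Each row is a probe set named by the rule in the methods, and the log axis gives its signal intensity on the 4 arrays, red for HoxA13 and blue for control, circles for replicate 1 and triangles for replicate 2. The grey band spans the background of the 4 arrays. Rows are read along the row only, since signals of different probe sets cannot be compared. Letters mark 2 probe sets of a gene. Control replicate 2 is the leftmost symbol for BUB1B, PLK1, PCNA and ORC1, and the CDK6 signals lie within or below the band.

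Among the cyclins and kinases of G1, 12 of 22 probe sets passed the filter, 6 with a difference above 0 and 6 below. Their median of 0.02 became -0.01 under both other scalings. CCND1, a D-type cyclin that starts the commitment to divide, gave 548 and 559 against 568 and 635. The groups did not overlap, but the difference was -0.11 (95% interval -0.62 to 0.39), so a 2-fold change lies outside the interval. A further CCND1 probe set gave 448 and 384 against 423 and 361, with overlap and a difference of 0.08. CCND2, a second D-type cyclin, gave 704 and 979 against 958 and 1507 at its brightest probe set. HoxA13 replicate 2 was above control replicate 1, so the groups overlapped. The difference was -0.53 (SE 0.27, unadjusted p = 0.0828, limma adjusted p = 0.999). Another CCND2 probe set was higher on both HoxA13 arrays, 43.9 and 34.7 against 30.2 and 31.3, a difference of 0.24. The remaining CCND2 probe set gave 327 and 255 against 476 and 237, with overlap and a difference of -0.21. CCND3 gave 187 and 190 against 177 and 142, also without overlap and higher, by 0.23.

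The E-type cyclins take the cell from G1 into S phase. CCNE1 overlapped between the groups at its brightest probe set, with 48.1 and 74.5 against 64.9 and 57.8. CCNE2 gave 551 and 584 against 484 and 884 at its brightest probe set, where control replicate 2 was the highest array. At its other probe set it was lower on both HoxA13 arrays, 167 and 176 against 189 and 192, by a small difference of -0.14. The phosphatase CDC25A, which frees CDKs from inhibitory phosphates, was at 45.8 and 60.4 against 40.6 and 51.9. For CDK6, the partner of the D-type cyclins, none of 5 probe sets passed the filter, and the highest signal of its brightest one was 14.7. The fixed genes CDK2 and CDK4 were not analysed here.

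The CDK inhibitors had 5 of 9 probe sets above the filter. CDKN1A, the p21 inhibitor that p53 induces after damage, gave 85.5 and 102 against 139 and 60.7. Its control arrays lay on either side of both HoxA13 arrays, with a difference of 0.01 (95% interval -0.82 to 0.84). CDKN1B, the p27 inhibitor, was higher on both HoxA13 arrays at one probe set, 196 and 174 against 173 and 150, by 0.18. At its other probe set it was 61.0 and 89.6 against 62.0 and 67.0, with overlap. CDKN3, a phosphatase that acts on CDKs, was at 46.0 and 40.1 against 42.7 and 26.2, a difference of 0.24. Its brighter probe set gave 41.0 and 46.7 against 44.9 and 51.3, a difference of -0.10, so the probe sets differed in sign. The INK4 genes CDKN2A, CDKN2B and CDKN2C did not pass the filter. Signals for them were at most 23.3 on any array. The brighter CDKN2C probe set gave 4.59 and 11.8 against 15.5 and 23.3, above background on the control arrays only. CDKN2A, with 8.66 and 15.3 against 6.01 and 5.81, went the other way. So did CDKN2B, with 9.60 and 11.6 against 5.96 and 7.83, and all these signals were near or below background.

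Origin licensing and firing had 17 of 22 probe sets above the filter, 14 with a difference above 0 and a median of 0.12. Without control replicate 2 it was 9 of 17, with a median of 0.01. Without control replicate 1 it was 10 of 17, with a median of 0.08. On all 4 arrays, 2 of the 17 (11.8%) were higher on both HoxA13 arrays without overlap, against 18.5% of all probe sets. Lower without overlap were 0, against 14.4% of all. MCM2, a subunit of the helicase that opens the DNA, gave 1117 and 1283 against 1047 and 1345, a difference of 0.01 (95% interval -0.46 to 0.48). Both replicate 2 arrays were above both replicate 1 arrays. The helicase subunit MCM5 gave 378 and 461 against 265 and 487, and its difference of 0.20 was 0.63 without control replicate 2. MCM3 gave 72.3 and 39.5 against 62.5 and 22.6, and here both replicate 2 arrays were the low ones. For MCM6 the brightest probe set gave 313 and 216 against 315 and 198, with the same split by replicate number. Another MCM6 probe set was higher on both HoxA13 arrays, 142 and 137 against 129 and 104.

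The origin recognition genes bind the DNA where copying will start. ORC1, the ATPase of the complex, gave 170 and 120 against 206 and 73.7. Its difference of 0.17 (95% interval -0.78 to 1.13) turned to -0.48 without control replicate 2. ORC2 gave 470 and 428 against 407 and 428, within a narrow range. An ORC6 probe set gave 14.1 and 6.22 against 31.5 and 12.8 and was above background on 1 array. A second ORC6 probe set was far above background and gave 527 and 645 against 507 and 601, a difference of 0.08 where the first had -0.52. CDC45, which joins the MCM ring when origins fire, gave 885 and 701 against 949 and 550.

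The polymerases and the clamp held the members farthest from 0 in both directions. Of 24 probe sets 21 passed the filter, with a median of 0.17, and 17 were above 0. Both HoxA13 signals lay above both controls for 8 of the 21 (38.1%, against 18.5% of all probe sets) and below for 3 (14.3%, against 14.4%). These 21 stand for only 14 genes, among them POLD3 with 5 probe sets, RFC1 with 3 and RFC2 with 2. Probe sets of a gene were counted singly, and both of RFC2 are among the 8. Without control replicate 2 the median difference was 0.14, with 13 of 21 above 0. Without control replicate 1 it was 0.17, with 15 of 21 above 0. This median moved less with control replicate 2 than the medians of mitotic entry and of anaphase and mitotic exit, given below. PCNA, the sliding clamp, gave 424 and 264 against 478 and 166. Both replicate 1 arrays were above both replicate 2 arrays, and the 95% interval of its difference ran from -0.78 to 1.23. POLA1, the polymerase that starts each strand, gave 29.9 and 9.48 against 21.0 and 14.8, near background.

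RFC subunits load the clamp onto DNA. RFC2 had a probe set with 294 and 169 against 151 and 110, higher on both HoxA13 arrays by 0.72 (95% interval -0.03 to 1.47, unadjusted p = 0.0581, limma adjusted p = 0.996). Its other probe set was also higher on both, 892 and 707 against 663 and 595, by 0.33. Among the 3 RFC1 probe sets the differences ran from 0.11 to 0.47, and that of RFC4 was 0.20, with 1912 and 1720 against 1483 and 1682. The RFC probe sets that passed the filter all lay above 0, at 0.23 for RFC3 and 0.17 for RFC5, and none passed the test. Apart from RFC2, the RFC genes were named after their values were seen.

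POLD3, an accessory subunit of polymerase delta, had 5 probe sets above the filter, with differences of both signs. One gave 63.0 and 86.0 against 51.6 and 26.3, higher by 0.75 (95% interval -0.01 to 1.50, unadjusted p = 0.0528). Another gave 25.0 and 16.6 against 41.3 and 54.9, lower by 0.80 (-0.80, 95% interval -1.47 to -0.14, unadjusted p = 0.0232, limma adjusted p = 0.822). In each of them the groups did not overlap, and neither passed after adjustment. The lower one was dim, near background on HoxA13 replicate 2. The other 3 lay at 0.09, 0.17 and 0.25, so the spread over probe sets of this gene was 1.55. Of the 28 member genes with several probe sets above the filter, 17 had differences of both signs. The same share over all genes is not given here. Many of these differences were small beside the median standard error of a member, 0.29. Each difference given here therefore holds for its probe set and not for every probe set of the gene. For CCND2 the spread was 0.76, for CCNG2 0.66 and for CDC5L 0.82.

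**Figure D3:**
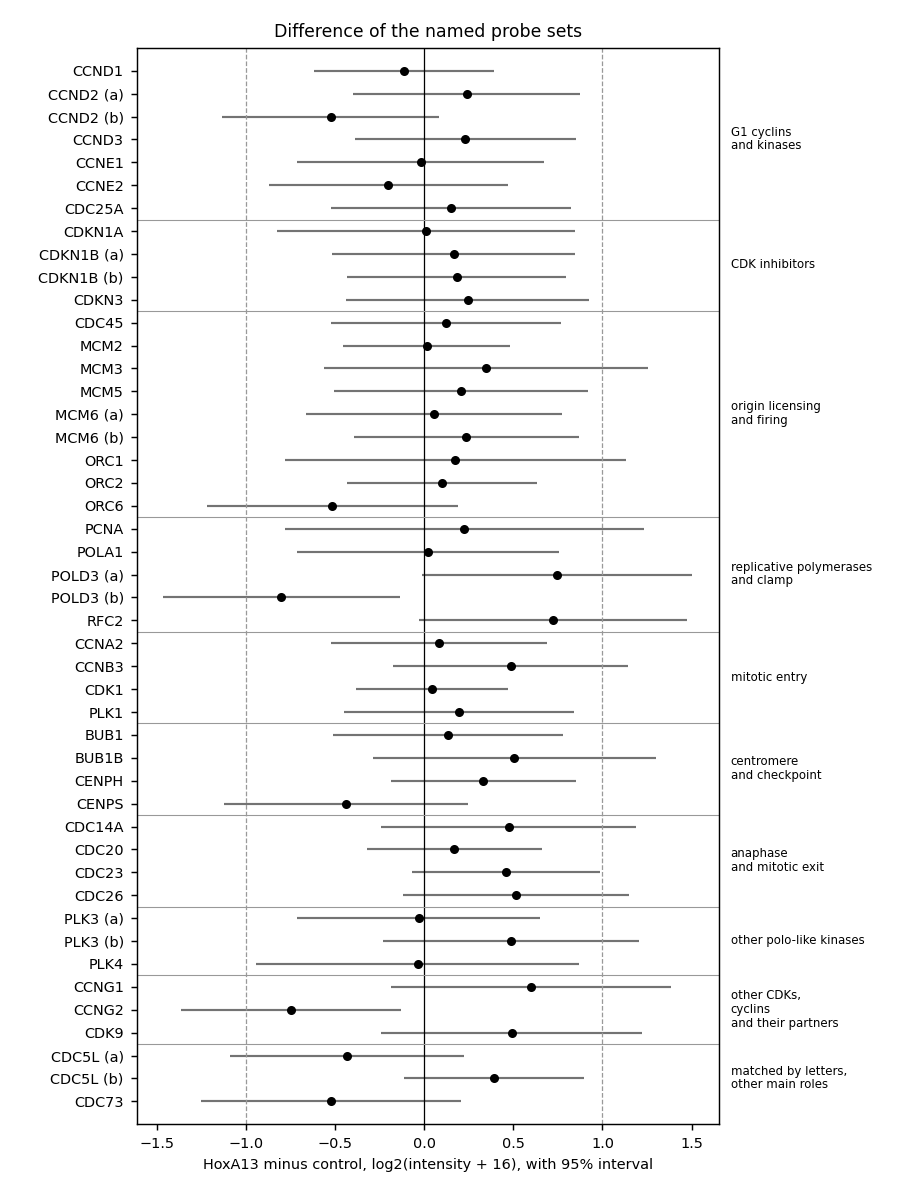
Points give the difference of HoxA13 from control on the log2(intensity + 16) scale for each named probe set that was tested, and bars its 95% interval from limma. Dashed lines mark a difference of 1 on this scale, close to 2-fold for bright probe sets and more than 2-fold in signal for dim ones. Only CCNG2 and 1 of the POLD3 probe sets have intervals that leave out 0, both below it, and neither passed after adjustment.

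Genes of mitotic entry had 6 of 8 probe sets above the filter, all 6 with a difference above 0, by 0.02 to 0.49. Without control replicate 2 only 1 of the 6 was above 0, and their median of 0.07 became -0.12. Without control replicate 1 all 6 were above 0, and the median was 0.33. CDK1, the kinase that drives entry into mitosis, gave 2544 and 2268 against 2747 and 1983. Its control arrays lay on either side of the HoxA13 arrays, and the difference of 0.04 had a narrow interval of -0.38 to 0.47. CCNA2, a cyclin of S phase and G2, gave 209 and 242 against 228 and 196. The polo-like kinase PLK1, which acts at centrosomes and kinetochores, gave 879 and 877 against 1031 and 566. The HoxA13 arrays were nearly equal, and the control arrays lay above and below them.

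CCNB3, a B-type cyclin, was the one gene of mitotic entry without overlap. It gave 279 and 401 against 270 and 203, higher by 0.49 (95% interval -0.17 to 1.15), and by 0.29 without control replicate 2. Its control replicate 1 was close to HoxA13 replicate 1. The fixed genes CCNB2, CDC25B and AURKA were not analysed here. AURKB, the Aurora kinase of the chromosomal passenger complex, and CCNB1 were chosen after their values were seen and had differences of 0.07 and 0.02.

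Centromere and checkpoint genes were the largest group, with 30 of 41 probe sets above the filter, 16 above 0 and 14 below. Their median of 0.04 became -0.03 without control replicate 2, with 15 above 0 and 15 below. Without control replicate 1 it was 0.30, with 23 above 0 and 7 below. Control replicate 2 held the lowest signal for 21 of the 30, and their median difference between the control arrays was -0.43 against 0.06 between the HoxA13 arrays. BUB1B, the checkpoint kinase BubR1, is an example, with 1314 and 1429 against 1496 and 615. Its difference was 0.51 (95% interval -0.29 to 1.30) and turned to -0.13 without control replicate 2. The checkpoint kinase BUB1 gave 554 and 497 against 616 and 369, and its 0.13 turned to -0.22. CENPH, a protein of the inner kinetochore, gave 949 and 892 against 851 and 622. It was higher on both HoxA13 arrays, by 0.33, and by 0.11 without that array. CENPS, a histone-fold protein of the kinetochore, gave 362 and 227 against 461 and 339 and was the lowest of the group, at -0.44.

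Anaphase and mitotic exit had 7 of 18 probe sets above the filter, 5 of them above 0. Control replicate 2 was the lowest array for 6 of the 7. The median of the 7 was 0.17. It became 0.09 without control replicate 2 and 0.41 without control replicate 1. CDC23, a subunit of the anaphase-promoting complex, was higher on both HoxA13 arrays, 701 and 684 against 561 and 445, by 0.46 (SE 0.23, unadjusted p = 0.0811). The small subunit CDC26 was higher too, 121 and 138 against 91.9 and 79.5, by 0.52. Without control replicate 2 these were 0.30 and 0.43. CDC20, which activates the complex, gave 1250 and 1345 against 1366 and 971, and its 0.17 turned to -0.07. CDC14A, a phosphatase that reverses CDK phosphorylation, gave 23.8 and 32.8 against 25.0 and 8.60, a dim signal.

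The remaining cyclins and kinases lie outside the core cycle or act beside it. CCNG2, a cyclin known for slowing the cycle, had the smallest p of all members. One probe set gave 236 and 302 against 395 and 534, lower on both HoxA13 arrays by 0.75 (-0.75, SE 0.27, 95% interval -1.37 to -0.13, unadjusted p = 0.0229, limma adjusted p = 0.822). The other CCNG2 probe set gave 918 and 1154 against 1126 and 1069, with overlap and a difference of -0.09. Its relative CCNG1, a p53 target, gave 591 and 787 against 649 and 304 at one probe set, where control replicate 2 was the low array. At the other it gave 2885 and 2545 against 2549 and 2008. CDK9, the kinase that releases paused RNA polymerase II, gave 20.4 and 37.8 against 23.1 and 9.29 at a dim probe set. Its brighter probe set gave 89.7 and 113 against 94.5 and 59.9, and the groups overlapped at both.

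PLK3, a stress-responsive polo-like kinase, gave 60.1 and 91.2 against 40.6 and 57.4, higher on both HoxA13 arrays by 0.49. Its second probe set, 48.5 and 35.5 against 36.0 and 50.7, overlapped at -0.03. PLK4, which starts centriole duplication, gave 151 and 69.1 against 144 and 77.9 and followed the replicate number. PLK2 did not pass the filter. In the set matched by letters, the splicing gene CDC5L had a probe set at 849 and 980 against 774 and 620 and another at 85.6 and 89.7 against 107 and 144. The first was higher by 0.39 and the second lower at -0.44. A probe set of CDC73, part of a complex that travels with RNA polymerase II, gave 56.9 and 30.8 against 63.4 and 72.7, a difference of -0.52. The brighter CDC73 probe set differed by -0.04.

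The pairs of equal replicate number did not show 1 common direction. The median difference of HoxA13 from control was -0.03 between the replicate 1 arrays and 0.17 between the replicate 2 arrays, where all probe sets had -0.00 and 0.07. Of the 140 members, 41 (29.3%) were higher in both pairs and 19 (13.6%) lower in both, against 31.1% and 24.3% of all probe sets. The other 80 (57.1%, against 44.6% of all) went opposite ways. Of these, 58 were lower in the first pair and higher in the second (41.4% of members, against 26.0% of all). By role the medians in the first and second pair were -0.17 and 0.39 for mitotic entry and -0.11 and 0.17 for centromere and checkpoint, of opposite sign. They were 0.22 and 0.19 for the polymerases and clamp and 0.07 and 0.46 for anaphase and mitotic exit, above 0 in both pairs. Origin licensing and firing (0.02 and 0.12) and the set matched by letters (0.05 and 0.11) were also above 0 in both. The remaining role groups had medians of opposite sign. The labels tie the replicate number to no day or litter. The 27 hybridisation spike-in probe sets, which measure RNA added to each sample, were all brighter on both arrays numbered 2 than on both numbered 1, with a median log2 difference of 0.75. The part of that step in the members' signals was not tested.

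**Figure D4:**
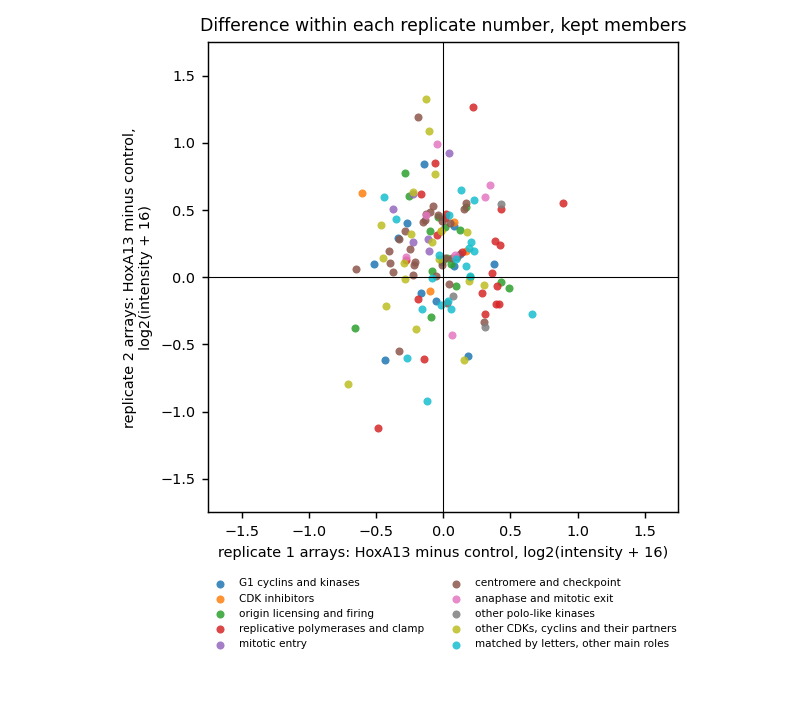
Each point is a member that passed the filter, coloured by role, with its HoxA13 minus control difference on the log2(intensity + 16) scale between the replicate 1 arrays on the horizontal axis and between the replicate 2 arrays on the vertical axis. The upper left quadrant holds 58 of the 140 points, more than the 41 of the upper right.

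Further genes of the pathway were taken from lists that the choice by symbol does not cover. Of 44 listed regulators and enzymes of G1/S and S phase, 37 were measured and 35 passed the filter. In limma 0 were called higher and 0 lower, with 1 at an unadjusted p under 0.05 and a median of 0.01. CLSPN, a mediator of the replication checkpoint, had the smallest p, with 23.4 and 16.7 against 38.9 and 54.2, a difference of -0.79 (unadjusted p = 0.024, adjusted p = 0.837). TOPBP1, which activates the checkpoint kinase ATR, followed at 12.2 and 6.49 against 26.8 and 16.2. Both were low on the HoxA13 arrays without overlap, and TOPBP1 was near background.

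Of 49 listed genes of G2/M and mitosis, 37 were measured and 36 passed the filter. Again 0 were called in either direction, and 0 had an unadjusted p under 0.05. Their median was 0.15, and 24 of the 36 (66.7%) had the lowest signal on control replicate 2. Without that array the median was -0.03, and without control replicate 1 it was 0.23. MYBL2, a transcription factor of mitotic genes, gave 149 and 134 against 105 and 74.1. CCNF, a cyclin that directs protein degradation, gave 21.0 and 24.3 against 9.53 and 12.2. Both MYBL2 signals of the HoxA13 group were above both controls. CCNF was near background, below it on both control arrays. Low signal on control replicate 2 was thus also common among mitotic genes outside the rule, on the same 4 arrays. In the G1/S and S phase list that array was lowest for 11 of 35 (31.4%), against 35.9% of all probe sets. In the list of arrest and damage genes it was lowest for 6 of 16 (37.5%).

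Of 21 listed genes of arrest and the damage response, 18 were measured and 16 passed the filter. Of these 0 were called, 2 had an unadjusted p under 0.05, and the median was 0.01. These 2 were sestrins, stress-induced proteins that restrain growth signalling, and they went opposite ways. SESN1 gave 495 and 586 against 333 and 380, higher by 0.58 (unadjusted p = 0.0412). SESN3 gave 28.5 and 20.9 against 46.3 and 52.9, lower at -0.69 (unadjusted p = 0.0384). Neither group overlapped, and the adjusted p was 0.949 and 0.944. The p53 targets CDKN1A and CCNG1 among the members overlapped at 1 or more probe sets, as given above.

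Markers of other tissues and of the streak were measured on the same arrays. In the limma fit as designed, without the replicate number, only HHEX had an adjusted p under 0.05, at 0.0386. The limma adjusted p was 0.0919 for FGF8, 0.135 for FLT1, 0.155 for PRRX1 and 0.837 for EPCAM. The signals and sums below are descriptions. The summed signal of 8 lateral and intermediate mesoderm markers was 49.9 and 67.4 on the HoxA13 arrays against 157 and 200 on the controls. Only 1 of the 8, PRRX1, passed the filter, and without it the sum was 33.3 and 37.5 against 47.8 and 87.3. For 9 blood and endothelial markers it was 87.2 and 43.2 against 279 and 228. Only 1 of the 9, the VEGF receptor gene FLT1, passed the filter. Without FLT1 the sum was 53.6 and 42.2 against 67.1 and 74.7, made up of signals that did not pass. The 10 streak genes summed to 16796 and 16250 against 14633 and 12927, with 7 of the 10 above 0 and 3 below. FGF8 gave 1411 and 1637 against 637 and 545, and MSGN1, a presomitic mesoderm gene, went the other way with 1399 and 1244 against 2040 and 1480. For 7 neural markers the sums of the groups overlapped. Endoderm and notochord markers summed to 280 and 284 against 485 and 625, where HHEX, 1 of the 9 probe sets called lower, gave 44.2 and 9.39 against 336 and 419. Without HHEX they summed to 235 and 274 against 148 and 206, higher on both HoxA13 arrays. That difference rested on the notochord gene NOTO, which gave 119 and 131 against 31.7 and 93.8. Of the 6 markers of this list that passed the filter, NOTO was the only 1 higher without overlap, and 2 were lower. Surface ectoderm markers summed to 2026 and 1168 against 2925 and 2132. That difference rested on EPCAM, and without it the sums were 451 and 139 against 322 and 445, with overlap. The part of these differences in the members' values was not tested.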

How the data were processed

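The deposited values are linear signal intensities, 1 per probe set, in a table of 4 arrays. Per the labels' protocols, total RNA was amplified in 2 cycles and hybridised as biotinylated cRNA. R 2.12.1 is named in the submitters' processing notes, but how signals were summarised and normalized is not given in the sources used here. Symbols come from the platform annotation, and 211 of the 212 members were also found in a RefSeq gene table. Intensities were put on the scale log2(intensity + 16). Chicken probe sets were kept where the mean over all arrays exceeded the mean background. HoxA13 was compared with control by limma 3.58.1 in R 4.3.3 (lmFit, eBayes with trend and robust estimation), two-sided, with Benjamini-Hochberg adjustment over all 14554 kept probe sets and a threshold of 0.05. The fit was tested on simulated data.

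With 2 arrays against 2 an exact permutation test of 1 gene cannot give a p below 0.333. The p-values measure only the spread between arrays of a group, where embryo pools and laboratory steps cannot be told apart. The number of arrays limits the precision, and the median standard error of a member was 0.29. The members and lists were chosen with earlier results of these data known. CDC2L1 and AURKAIP1 were given their groups after the values were present. Named probe sets are any member called with or without the replicate block, the 3 with the smallest p in each of 10 role groups, and 32 fixed genes by their brightest probe set, of which 22 were measured. From each list outside the rule, called genes and the 2 with the smallest p are named. Alternatives were another offset, other filters, a plain prior, quantile normalization, centring, the replicate block, leaving out each array and 1 probe set per gene. No genome build is named with the values, so positions and sequences are not given.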

Additional observations from a re-analysis of the deposited data

How the results depend on the processing

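No member was called higher or lower under any alternative, and the members' median stayed above 0 in each, from 0.02 without control replicate 2 to 0.19 without control replicate 1. The counts without overlap moved. Without the filter on low signal they were 39 higher and 22 lower of 212 members (18.4% and 10.4%, against 17.0% and 15.99% of all probe sets), also with no offset and a plain prior. Leaving out 1 array gave 43 to 80 higher and 20 to 47 lower, since a group of 1 array overlaps less often. That is 30.7% to 57.1% and 14.3% to 33.6%, against 32.5% to 43.2% and 27.5% to 35.0% of all probe sets. Where the 4 arrays gave 25 members higher and 9 lower, those without control replicate 2 gave 47 higher and 47 lower. These are 33.6% each, against 32.5% and 35.0% of all probe sets. Without control replicate 1, 14 members were higher and 4 lower at an unadjusted p under 0.05 (10.0% and 2.86%, against 6.06% and 4.34% of all probe sets), with a smallest adjusted p of 0.0714 in limma, and over all probe sets 16 were called higher and 43 lower. Labels give both groups replicates 1 and 2 but tie the number to no day or litter, so the labels name nothing else that these samples share. Deviations of equally numbered arrays correlated at 0.32 over all probe sets and 0.47 over members. What equally numbered arrays have in common was not tested. With the replicate block, 41 members were higher and 19 lower in both pairs, 60 probe sets were called higher and 126 lower, and 0 members were called, 8 having an unadjusted p under 0.05 (5.71%, against 10.2% of all) and CCNG2 the smallest adjusted p of 0.102. Of 551 alternative values for 46 named probe sets, 511 kept their sign and 40 did not, at 21 probe sets, none of them called. The share of members lowest on control replicate 2 ran from 43.9% without the filter to 56% with 1 probe set per gene. The shares of all probe sets there were 29.0% and 37.5%. This share was examined after seeing the data, as were its alternatives. Without any filter and offset, 8 of 212 members had an unadjusted p under 0.05 (3.77%, against 5.91%). Dim members near background have only a bound on their level, which limits what their differences show.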
